A study of Homo sapiens with 16 samples.

Results

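Protein phosphatase 2A (PP2A) is covered here by the 9 genes of its catalytic, scaffold and B56 regulatory subunits, in U937 cells that were induced to express the leukaemia fusion protein AML1-ETO and in control cells. The genes are PPP2CA and PPP2CB (catalytic), PPP2R1A and PPP2R1B (scaffold), and PPP2R5A, PPP2R5B, PPP2R5C, PPP2R5D and PPP2R5E (B56). All probe sets whose symbol on the array's annotation was that of a member were taken, which gave 16 of 12626 probe sets, for 9 of the 8228 genes that single-symbol probe sets name. Of the 16 probe sets, 15 passed the filter on low values and entered the tests, and 1 probe set of PPP2CA did not. PPP2R5B was chosen by its rise in the induced cells, so its induced and control values are given as a description with no test. The question was whether the other subunits, above all the other B56 subunits, changed as well.

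U937 is a human monocytic leukaemia line, and in this study AML1-ETO was switched through a promoter that tetracycline controls. The fusion joins the DNA-binding part of RUNX1 to most of RUNX1T1. Total RNA was hybridised to Affymetrix U95Av2 arrays, on which a probe set is a group of short oligonucleotides that are read together. Some probe sets can match more than 1 transcript. Induced cells were sampled at 12, 24, 48 and 72 h, and control cells at 0, 24, 48 and 72 h. Each of these 8 groups had 2 arrays. All groups share the cell line and, per the labels, the AML1-ETO construct, and the labels do not say how the control cultures were handled. Controls of 12 h, which the labels also mention, were not used here, so that induced cells of this hour could be set only against controls at 0 h. No label says that replicates came from separate cultures, so p-values measure the spread between these arrays, which may be technical.

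PP2A works as a complex of 3 parts. A catalytic subunit removes phosphate from serine and threonine, a scaffold subunit holds the complex together, and a regulatory B subunit chooses the substrate and the place in the cell. The B56 family is a group of B subunits that bind a short docking motif in their partners, and B56 complexes are known for acting on MYC, AKT, beta-catenin and proteins of the mitotic checkpoint. Loss of PP2A activity is a known feature of several leukaemias.

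In the average over 24, 48 and 72 h, 6 of the 14 tested probe sets other than that of PPP2R5B were higher in induced cells and 0 were lower. They belonged to PPP2CA, PPP2CB, PPP2R1B, PPP2R5C and PPP2R5E, with fitted rises of between 1.57-fold (PPP2R5E) and 2.04-fold (PPP2R5C). Over all 7824 tested probe sets, 31.9% were called in this comparison, 18.5% as higher and 13.4% as lower, against 42.9% of these 14. A call means an adjusted p under 0.05 in a linear model over all 16 arrays. The median log2 difference was 0.42 over the 14 probe sets and 0.102 over all tested probe sets. Of the 7 probe sets of B56 subunits other than PPP2R5B, 3 were called, for PPP2R5C and PPP2R5E, and none of PPP2R5A or PPP2R5D. Of the 7 probe sets of catalytic and scaffold subunits, 3 were called.

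The bases before the start sites of 4 genes are shown here, 3 with at least 1 probe set that was high in the induced cells at 72 h (PPP2R5B, PPP2R5C and PPP2CA) and PPP2R5A for contrast. Each is a window of 250 bases that ends at a RefSeq transcript start (GRCh38.p14), read 5′ to 3′ on the gene's own strand. For PPP2R5C and PPP2CA it is the window of the outermost listed start. Capitals mark matches, on either strand, to TGTGGT (the core bound by RUNX proteins), CCAAT (the CCAAT box) or TGACGTCA (the cyclic AMP response element).
PPP2R5B, chr11:64924439-64924688, plus strand: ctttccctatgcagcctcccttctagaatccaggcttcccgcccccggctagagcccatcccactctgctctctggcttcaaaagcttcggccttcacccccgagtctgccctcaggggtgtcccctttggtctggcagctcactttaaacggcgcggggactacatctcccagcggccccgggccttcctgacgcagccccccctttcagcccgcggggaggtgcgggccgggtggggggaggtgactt
PPP2R5C, chr14:101760323-101760572, plus strand: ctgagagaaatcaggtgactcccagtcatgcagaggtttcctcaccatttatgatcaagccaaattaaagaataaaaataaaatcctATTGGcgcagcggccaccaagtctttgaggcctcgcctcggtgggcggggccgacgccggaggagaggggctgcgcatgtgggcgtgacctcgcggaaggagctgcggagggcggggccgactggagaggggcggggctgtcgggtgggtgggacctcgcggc
PPP2CA, chr5:134226074-134226323, minus strand: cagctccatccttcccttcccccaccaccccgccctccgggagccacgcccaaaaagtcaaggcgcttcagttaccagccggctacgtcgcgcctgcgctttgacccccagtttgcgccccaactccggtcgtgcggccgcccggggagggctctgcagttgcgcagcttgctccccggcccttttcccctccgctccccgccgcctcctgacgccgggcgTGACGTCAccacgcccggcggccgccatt
PPP2R5A, chr1:212285160-212285409, plus strand: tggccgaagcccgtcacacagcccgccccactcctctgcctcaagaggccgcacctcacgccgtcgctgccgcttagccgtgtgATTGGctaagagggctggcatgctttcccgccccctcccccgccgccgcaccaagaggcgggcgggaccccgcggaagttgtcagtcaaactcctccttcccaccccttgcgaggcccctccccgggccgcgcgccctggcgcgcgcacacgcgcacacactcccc
The PPP2R5B window held none of the 3 motifs and lies inside the outer bounds of the gene. The PPP2R5C window held 1 CCAAT on the opposite strand, as did that of PPP2R5A, and the PPP2CA window held 1 TGACGTCA. No matches overlapped in these 4 windows. Among 35116 RefSeq windows of the same length, 11.0% held TGTGGT, 32.0% held CCAAT and 1.65% held TGACGTCA. Of the 14 windows listed for 8 of the member genes, 1 held TGTGGT, at an inner start site of PPP2R5E. A match describes these letters and does not show that a factor binds there.

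PPP2R5B encodes the beta form of B56, and its gene lies at chr11:64917573-64934475 (GRCh38.p14). Its probe set 635_s_at read 130.2 and 313 in the induced arrays at 12 h, against 99.7 and 328 in the control arrays at 0 h. At 24 h it read 244 and 258 in induced cells, against 37.6 and 113 in control cells. The first clear gap was at 48 h, with 1470.1 and 1549 in induced cells, against 135 and 237 in control cells. At 72 h it read 2866 and 2339 in induced cells, against -35.7 and 82.0 in control cells. Every induced array from 24 h on lay above every control array of the same hour, and the induced arrays at 48 and 72 h lay above all other arrays.

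Intensities under a floor of 135.609, the 40th percentile of all values, were set to it before logarithms were taken. On that scale the fitted value of PPP2R5B was at least 8.42-fold higher in induced cells at 48 h, where 1 of the 2 control arrays lay at the floor. At 72 h it was at least 19.1-fold higher, a lower bound because both control arrays lay at the floor. At 12 h against 0 h the log2 difference was -0.03 (SE 0.50), with both groups partly at the floor. Both control arrays at 24 and 72 h and 1 each at 0 and 48 h were set to the floor, so a drift between control hours could hardly be seen.

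**Figure D1:**
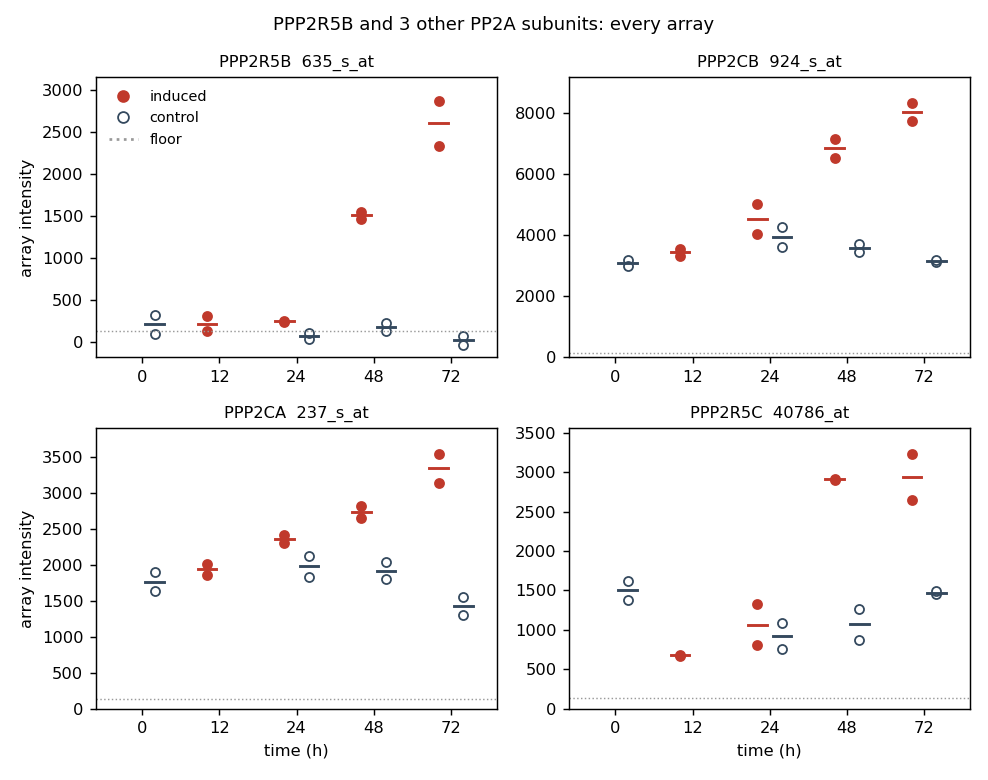
Deposited intensity (vertical axis, linear) of PPP2R5B, PPP2CB, PPP2CA and 1 probe set of PPP2R5C on each of the 16 arrays by hour (horizontal axis), with induced arrays as filled red points to the left, control arrays as open points to the right, group means (n = 2) as short lines and the floor as a dotted line. At 72 h both induced arrays lie above both control arrays in all 4 panels, and in PPP2R5B the induced arrays at 48 and 72 h stand at 1470.1 or more while all others are at 328 or less.

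RUNX1T1, whose sequence is part of the fusion, showed the induction. Its only tested probe set read -116 and 86.1 in induced cells at 12 h, 1592 and -47.5 at 24 h, 8650 and 3974 at 48 h and 10603 and 8355 at 72 h, and 91.4 or less in all control arrays. Induction was thus not seen at 12 h and was seen in 1 of the 2 induced arrays at 24 h. At 24 h 0% of all probe sets were called. At 48 h 10.5% were called as higher and 8.68% as lower, and at 72 h 16.1% and 13.9%. Array medians lay between 220.3 and 337.5, and replicate arrays correlated at between 0.966 and 0.991 over all probe sets. Of 14 myeloid marker genes on the array, 10 were above the overall median in at least 8 arrays, and CD14, CSF1R, ITGAM and MPO were not. So were 3 of 6 T cell genes (CD2, CD3E and CD7) and 3 of 6 epithelial or fibroblast genes (CDH1, COL1A1 and KRT8). Of 4 B cell genes 1 was (CD79A), and of 5 erythroid and megakaryocyte genes 1 (ITGA2B). The summed intensity of all 14 myeloid genes was 23045 to 55997 in induced arrays at 24 to 72 h and 44561 to 54397 in control arrays. The sums of T cell, B cell, erythroid and epithelial or fibroblast marker lists overlapped between those groups, as did that of the myeloid list. The part of these markers in the PP2A results was not tested. In such bulk RNA, a change in the share of cells that express a gene and a change in RNA per cell cannot be told apart.

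The catalytic subunits rose. PPP2CB, which encodes the beta form and lies on chromosome 8, showed the smallest adjusted p in the average among the members other than PPP2R5B. Its probe set 924_s_at read 5034 and 4042 in induced cells at 24 h, against 3597 and 4278 in control cells. At 48 h it read 7135 and 6532 in induced cells, against 3724 and 3436 in control cells. At 72 h the intensities were 8332 and 7721 in induced cells, against 3133 and 3182 in control cells. The groups overlapped at 24 h and were apart at 48 and 72 h, where the lowest induced array stood far above the highest control array.

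On the log2 scale the average difference of PPP2CB was 0.83 (SE 0.088, adjusted p = 1.28e-05), a 1.77-fold rise. The difference was 0.20 at 24 h (adjusted p = 0.991), 0.93 at 48 h (adjusted p = 0.000915) and 1.35 at 72 h (adjusted p = 2.46e-05). These 3 differences were unequal by an F test (adjusted p = 0.00959), the only such call among the 14 probe sets other than PPP2R5B's, while 10.9% of all tested probe sets were called. Without replicate 2 of the induced cells at 24 h that adjusted p was 0.06, and it stayed at or under 0.05 without any other single array. At 12 h the arrays read 3309.5 and 3558, against 3189 and 2983 at 0 h in control cells, a log2 difference of 0.15 (adjusted p = 0.619).

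PPP2CA encodes the alpha form of the catalytic subunit, which in most cells is the more abundant form, and lies at chr5:134194332-134226073. Its probe set 237_s_at read 2419 and 2308 in induced cells at 24 h, against 1834 and 2124 in control cells. It read 2817 and 2659 in induced cells at 48 h, against 1801 and 2043 in control cells. At 72 h it read 3544 and 3139.7 in induced cells, against 1309.5 and 1548 in control cells. All 6 induced arrays lay above all 6 control arrays, an order that 3.25% of all tested probe sets showed, 2 of the 14 among them (PPP2CA and PPP2R1B).

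The average log2 difference of PPP2CA was 0.67 (SE 0.10, adjusted p = 0.000281), a 1.59-fold rise. At 72 h the difference was 1.23 (adjusted p = 0.000191), of which the control side gave part: control arrays at 72 h averaged 1429, against 1770.1 at 0 h, a control difference of -0.31 (SE 0.18) within controls that were not called as drifting (F test, adjusted p = 0.543). At 48 h it was 0.51 (adjusted p = 0.0653) and at 24 h 0.26 (adjusted p = 0.991). The second PPP2CA probe set, 33181_at, was under the floor in 15 of 16 arrays, ranged between -148 and 277, and was not tested. The suffix of 924_s_at, 237_s_at and 635_s_at marks probes that can match more than 1 transcript, so these readings may not be wholly separate. Probe sequences were not used here, and this was not tested.

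Of the scaffold subunits, PPP2R1A was not called and PPP2R1B was called on 1 of its 3 probe sets. PPP2R1A encodes the alpha scaffold, the main form in most tissues, and lies at chr19:52190052-52229518. Its 2 probe sets were bright on all 16 arrays, 922_at between 10229.5 and 14024 and 40867_at between 6343 and 11171. Neither was called at any hour. For 922_at the average log2 difference was 0.05 (95% interval -0.11 to 0.20, adjusted p = 0.649), which turned to -0.09 when each array was centred on its median. For 40867_at it was 0.16 (95% interval -0.10 to 0.43, adjusted p = 0.343).

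PPP2R1B, the beta scaffold at chr11:111688000-111766389, had 3 probe sets, all with average differences above 0, of which 1 was called. Probe set 1093_at read 563 and 728 in induced cells at 24 h, 625 and 442 at 48 h and 812 and 439.9 at 72 h. In control cells it read 402 and 351 at 24 h, 259.8 and 322 at 48 h and 365 and 307 at 72 h. All 6 induced arrays again lay above all 6 control arrays, although replicates 1 and 2 of the induced cells at 72 h were far apart.

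The average log2 difference of 1093_at was 0.82 (SE 0.23, adjusted p = 0.0137), and no single hour was called. Quantile normalization took it to 0.66 (adjusted p = 0.0502). The other probe sets had wider errors and were not called, with 0.23 for 1094_g_at (95% interval -0.62 to 1.08) and 0.44 for 41429_at (95% interval -0.18 to 1.06). The control arrays at 0 h read 158 and 278 for 1094_g_at, below all other control arrays. For 41429_at they read 279.6 and 1224, so that its low level at 0 h rests on 1 array. With controls at 0 h in place of those of the same hour, both differences were called, at 2.27 (adjusted p = 0.0132) and 1.49 (adjusted p = 0.0224).

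**Figure D2:**
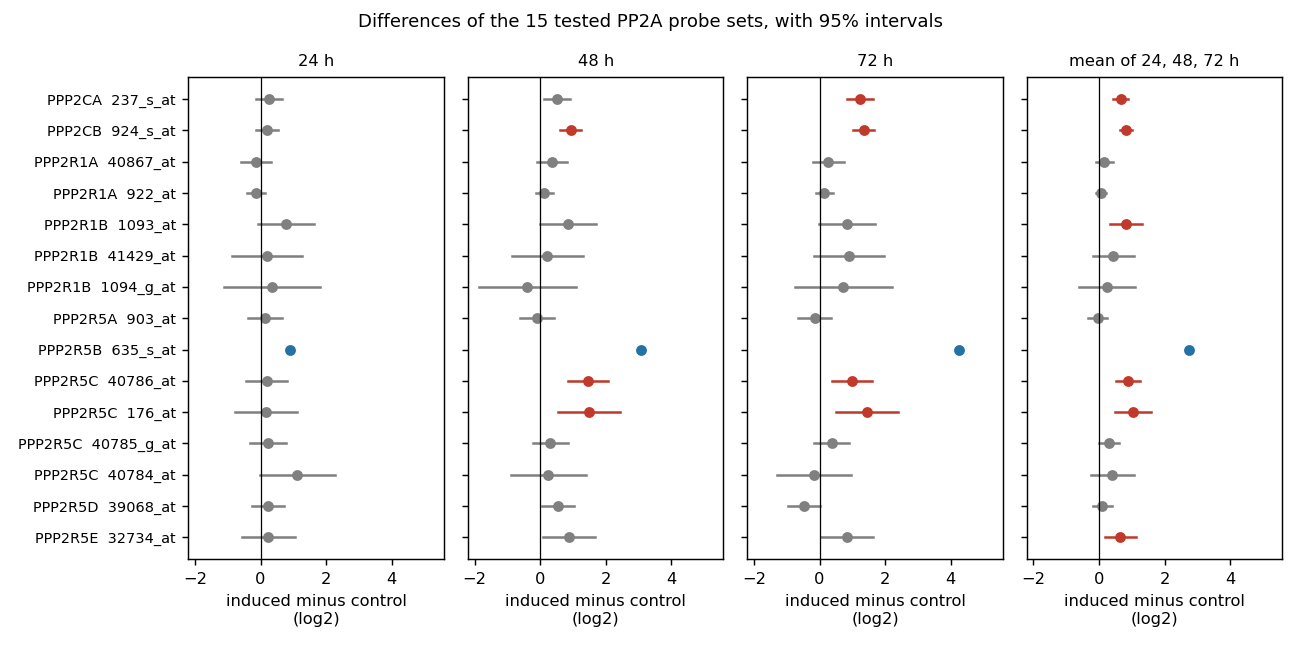
Fitted log2 difference of induced minus control cells (horizontal axis) for each of the 15 tested probe sets (rows), at 24, 48 and 72 h and as the mean of the 3, with 95% intervals as bars, called differences in red, others in grey and PPP2R5B, which was not tested, in blue with no interval. At 24 h none is called, and at 72 h PPP2CA, PPP2CB and 2 probe sets of PPP2R5C are called, at between 0.99 and 1.45.

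Among the B56 subunits other than PPP2R5B, PPP2R5C was called on 2 of its 4 probe sets. It encodes the gamma form, known for acting on p53 among other partners, and lies at chr14:101760573-101927992. It had 4 probe sets, designed from 2 transcript records with 2 probe sets each. Probe set 40786_at read 1328 and 806 in induced cells at 24 h, against 764 and 1084 in control cells. At 48 h it read 2902 and 2913 in induced cells, against 1270.3 and 869.5 in control cells. At 72 h it read 3232 and 2652 in induced cells, against 1451 and 1498 in control cells. The groups overlapped at 24 h, and the induced arrays at 48 and 72 h stood above all 12 other arrays. PPP2CB (6532 or more, against 5034 or less) and PPP2CA (2659 or more, against 2419 or less) showed this order too. The share of all tested probe sets with this order was not counted.

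Probe set 176_at gave the same picture at lower intensity. It read 579 and 419 in induced cells at 24 h, against 293 and 669.8 in control cells. At 48 h it read 1669 and 1662 in induced cells, against 533 and 667 in control cells, and at 72 h 2106 and 1589, against 537 and 835. Here too the 4 induced arrays at 48 and 72 h were above all others.

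For 40786_at the log2 difference was 0.88 in the average (SE 0.17, adjusted p = 0.00107), 1.47 at 48 h (adjusted p = 0.00299) and 0.99 at 72 h (adjusted p = 0.018). For 176_at it was 1.03 in the average (SE 0.25, adjusted p = 0.0068), 1.48 at 48 h (adjusted p = 0.0311) and 1.45 at 72 h (adjusted p = 0.0232). The calls of 176_at at 48 h were lost without any 1 of the 4 arrays at that hour (adjusted p up to 0.164), and those at 72 h without either induced array or control replicate 1 (up to 0.168). The 72 h call of 40786_at was lost without induced replicate 1 or either control array at that hour (up to 0.113). Against controls at 0 h, whose intensities were among the highest of the controls, the average differences were 0.61 for 176_at (adjusted p = 0.279) and 0.46 for 40786_at (adjusted p = 0.202). The calls in the average thus rest on the controls of the same hour, and single hours were not fitted against 0 h. Mean log2 values of 176_at were 9.55 in controls at 0 h and 8.944, 10.7 and 10.84 in induced cells at 24, 48 and 72 h. Those of 40786_at were 10.55, and 10.02, 11.51 and 11.52.

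The other pair of PPP2R5C probe sets was not called at any hour. Probe set 40785_g_at read 1564 and 1417 in induced cells at 48 h, against 1191 and 1195 in control cells, and 1489.6 and 1330.1 at 72 h, against 1068 and 1116. Its groups were apart at both hours, with an average log2 difference of 0.30 (95% interval -0.01 to 0.62, adjusted p = 0.138). Probe set 40784_at had an average difference of 0.40 (95% interval -0.26 to 1.06, adjusted p = 0.35), with its 2 induced arrays at 48 h at 1170.4 and 472. The mean difference of 40786_at and 176_at exceeded that of the other pair by 0.60 on the log2 scale. An exact two-sided permutation test of that gap, with labels exchanged within each hour, gave p = 0.12 over 216 permutations, of which the smallest possible is 0.00926. The pairs follow the 2 transcript records, and the comparison between them was made after their values were seen.

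At 12 h the same pair of PPP2R5C probe sets read low. Probe set 40786_at read 671 and 686 in induced cells, against 1378 and 1626 in control cells at 0 h, a log2 difference of -1.14 (SE 0.29, adjusted p = 0.0487). It was the only member called in that comparison, where 3.28% of all tested probe sets were called, 2.12% as lower. This call was lost in 12 of the 16 fits that leave out an array (adjusted p up to 0.189), all but those without an array of 24 h. Probe set 176_at read 214 and 394 in induced cells, against 695 and 808 in control cells at 0 h, with a difference of -1.37 (adjusted p = 0.101). The differences of 40784_at and 40785_g_at were -0.17 (adjusted p = 0.907) and -0.05 (adjusted p = 0.952), and both were above 0 with each array centred on its median. In this comparison all tested probe sets had a median of -0.153, and centring each array on its median left -0.89 for 40786_at (adjusted p = 0.0868). Time and induction cannot be told apart between these groups.

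**Figure D3:**
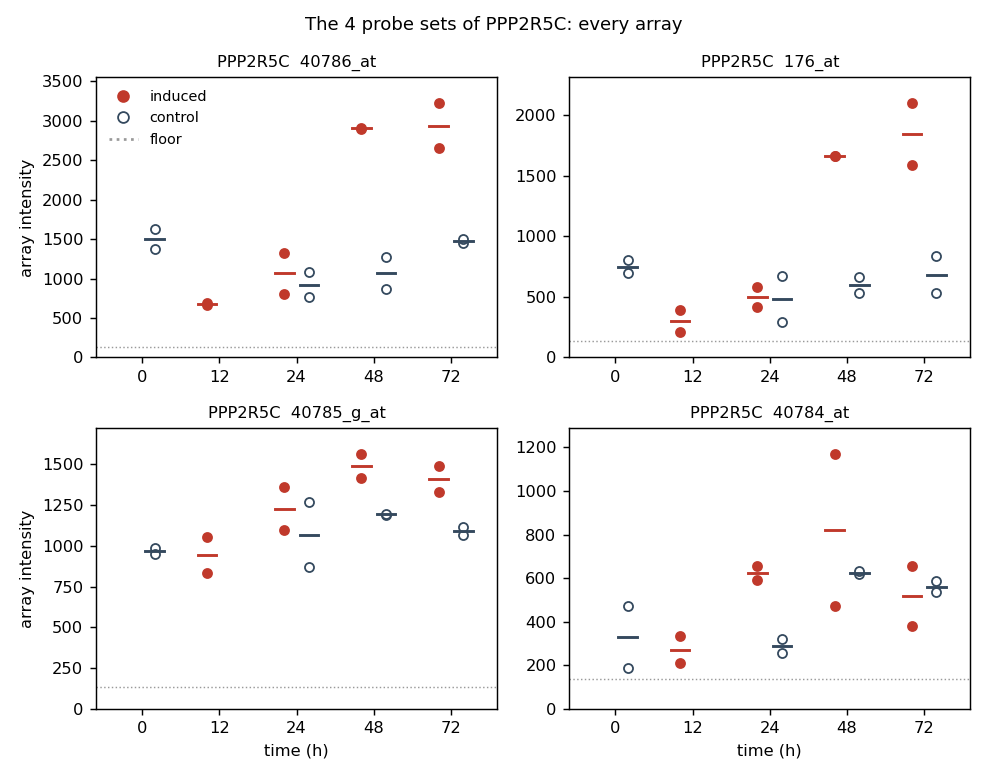
Deposited intensity (vertical axis, linear) of the 4 PPP2R5C probe sets on each of the 16 arrays by hour (horizontal axis), with induced arrays as filled red points to the left, control arrays as open points to the right, group means (n = 2) as short lines and the floor as a dotted line. In the upper panels, 40786_at and 176_at, the induced arrays at 48 and 72 h stand above all other arrays, at 2652 or more and at 1589 or more, and in the lower panels the gaps at these hours are smaller or absent.

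PPP2R5E, the epsilon form at chr14:63371364-63543377, had 1 probe set, 32734_at. It read 1050.5 and 913 in induced cells at 24 h, against 667 and 1031 in control cells. At 48 h it read 1203 and 1139 in induced cells, against 571 and 710.5 in control cells, and at 72 h 1522 and 986, against 526 and 883. The groups were apart at 48 and 72 h and overlapped at 24 h.

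The average log2 difference of PPP2R5E was 0.65 (SE 0.21, adjusted p = 0.0321), and no single hour was called (0.88 at 48 h with adjusted p = 0.125, 0.85 at 72 h with adjusted p = 0.106). This call was lost without any 1 of 8 arrays, which were both induced arrays at 24 and 48 h, induced replicate 1 at 72 h and control replicate 1 at 24, 48 and 72 h (adjusted p up to 0.0974). It was also lost with no filter on low values (0.0571), with quantile normalization (0.0521), with median centring (0.057) and against controls at 0 h (0.52).

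PPP2R5A encodes the alpha form, known for its action on MYC, and lies at chr1:212285410-212361853. Its probe set 903_at read 1279 and 1310.3 in induced cells at 24 h, against 1054 and 1326 in control cells. It read 1371 and 1208 in induced cells at 48 h, against 1367 and 1382 in control cells, and 1563 and 1301 at 72 h, against 1410.4 and 1779.6. The groups overlapped at all 3 hours. The average log2 difference was -0.04, and its 95% interval of -0.33 to 0.26 leaves room for changes of about that size in either direction (adjusted p = 0.856). At 12 h it read 879 and 1179 in induced cells, against 1909.8 and 1756 in control cells at 0 h, a difference of -0.85 that was not called (adjusted p = 0.0649).

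PPP2R5D encodes the delta form and lies at chr6:42984570-43012342. Its probe set 39068_at read 2559.7 and 2645 in induced cells at 24 h, against 2021 and 2433 in control cells. At 48 h it read 3367 and 2899 in induced cells, against 1709 and 2653 in control cells, and at 72 h 2109 and 2063, against 3439 and 2405. The induced arrays were thus above the controls at 48 h and below them at 72 h. The log2 differences were 0.55 (adjusted p = 0.111) and -0.46 (adjusted p = 0.143), and the test of unequal differences over the 3 hours gave an adjusted p of 0.12. The average was 0.11 (95% interval -0.17 to 0.39, adjusted p = 0.571), which turned to -0.03 with median centring.

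**Figure D4:**
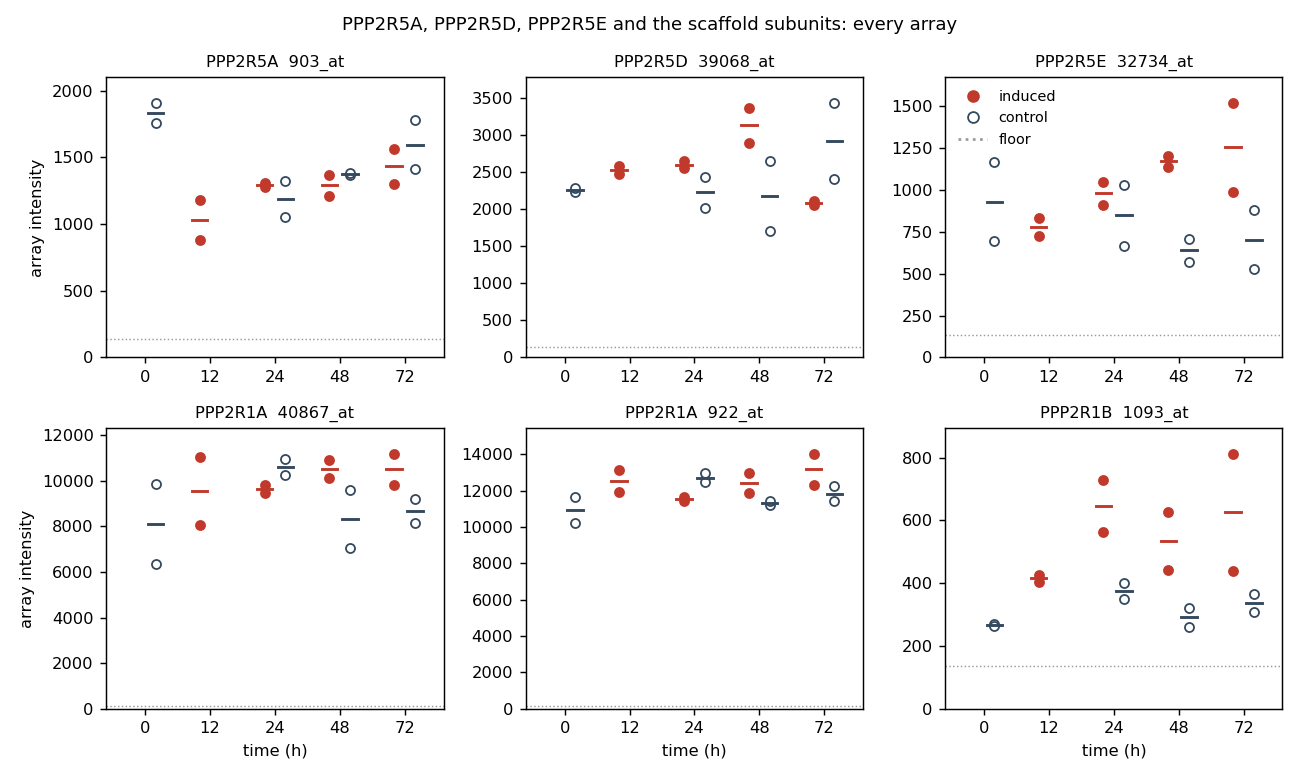
Deposited intensity (vertical axis, linear) of PPP2R5A, PPP2R5D, PPP2R5E, both PPP2R1A probe sets and PPP2R1B 1093_at on each of the 16 arrays by hour (horizontal axis), with induced arrays as filled red points to the left, control arrays as open points to the right, group means (n = 2) as short lines and the floor as a dotted line. Induced and control arrays overlap at all 3 shared hours in PPP2R5A, and PPP2R1B 1093_at has every induced array from 24 h on above every control array.

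At 24 h none of the 14 was called, as none of all probe sets was, and none of the 14 had an unadjusted p under 0.05. At 48 h 3 of the 14 were called as higher (21.4%), against 10.5% of all probe sets called as higher. At 72 h 4 of the 14 were called as higher (28.6%), against 16.1% of all. None of the 14 was called as lower at 48 or 72 h, against 8.68% and 13.9% of all. Both induced arrays lay above both control arrays in 10 of the 14 at 48 h, against 35.8% of all tested probe sets, and in 10 of the 14 at 72 h, against 38.8%. None of the 14 was called as differing between control hours, where 0.192% of all probe sets were.

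All 7824 tested probe sets together had a median difference above 0, of 0.102 in the average and 0.178 at 72 h on the log2 scale. With each array centred on its median, the average differences were 0.69 for PPP2CB (adjusted p = 6.68e-05), 0.53 for PPP2CA (adjusted p = 0.00138), 0.74 for 40786_at (adjusted p = 0.00241) and 0.89 for 176_at (adjusted p = 0.00712). PPP2R1B 1093_at was at 0.69 on that scale (adjusted p = 0.0359) and PPP2R5E at 0.52 (adjusted p = 0.057).

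Across the 16 arrays the members differed in how closely their log2 intensities followed PPP2R5B. Pearson's r was 0.905 for PPP2CB, 0.836 for PPP2CA, 0.823 for 176_at, 0.789 for 40786_at and 0.732 for PPP2R5E. The other PPP2R5C probe sets were at 0.647 (40785_g_at) and 0.357 (40784_at), those of PPP2R1B between 0.12 and 0.594 and those of PPP2R1A at 0.492 and 0.512. It was 0.0394 for PPP2R5A and 0.0974 for PPP2R5D. All these values share the same arrays and the same time course. PPP2R5B was chosen by its rise, and 7 of its 16 values were set to the floor. Any gene that rose at 48 and 72 h would therefore follow it, and these values describe the called rises again. The ranks of the members among all genes were not computed. Among 5605 other genes the closest were H2BC21, a histone H2B gene (r = 0.978), HEXIM1, an inhibitor of the elongation factor P-TEFb (0.969), PLEKHM1, a lysosomal adaptor (0.969), SELENOP, a secreted selenium carrier (0.968), and CD53, a tetraspanin of leukocytes (0.964). The lowest were AASDHPPT (-0.981) and MS4A3 (-0.972).

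Further subunits and partners of PP2A, and subunits of related phosphatases, were counted in 5 lists, each gene by its probe set of highest mean. Over 5606 genes counted this way, 19.7% were called as higher and 13.8% as lower in the average, with a median of 0.101. Of PP2A subunits of other B families, 2 of 4 tested genes were higher and 0 lower (median 0.76). These were the striatins, scaffolds of a separate PP2A complex, STRN at 1.98 (adjusted p = 0.000578) and STRN3 at 1.25 (adjusted p = 0.00605). The value of STRN is a lower bound, since 2 of its 6 control arrays lay at the floor. PPP2R2A, of the B55 family, was not called at 0.16 (adjusted p = 0.183). STRN was not called against controls at 0 h (0.53, adjusted p = 0.499).

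Of 7 assembly factors and inhibitors, 2 were higher and 0 lower (median 0.28). TIPRL, which binds free catalytic subunits, stood at 0.79 (adjusted p = 0.0119) and at -0.05 against controls at 0 h. PTPA, the PP2A activator, stood at 0.45 on its brightest probe set (adjusted p = 0.00291), while its other probe set was not called at 0.27 (adjusted p = 0.429). IGBP1, which binds the catalytic subunit, was lower at 12 h than in controls at 0 h (-1.38, adjusted p = 0.0371).

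Catalytic subunits of related phosphatases had 2 higher and 0 lower among 9 genes, with a median of 0.08 that lay near that of all genes. They were PPP3CB, a catalytic subunit of calcineurin, at 0.78 (adjusted p = 0.0166) and PPP6C, that of PP6, at 0.47 (adjusted p = 0.0124). A second PPP3CB probe set was also called, at 1.21 (adjusted p = 0.000203). Of 13 regulatory subunits of PP1, PP2B, PP4 and PP6, 5 were higher and 0 lower (median 0.53). The largest rise was that of PPP1R15A, which guides PP1 to the translation factor eIF2-alpha, at 1.90 (adjusted p = 0.00314). PPP1R12B (1.09, adjusted p = 0.0477) and PPP1R12A (0.71, adjusted p = 0.0231), targeting subunits of myosin phosphatase, and PPP1R2, a PP1 inhibitor (0.58, adjusted p = 0.0431), followed. The other 2 tested probe sets of PPP1R2 were not called, at 0.41 (adjusted p = 0.201) and -0.25 (adjusted p = 0.414). PPP1R15A, PPP1R12B, PPP1R12A, PPP1R2, PPP3CB and PPP6C were not called against controls at 0 h, and PPP1R12B and PPP1R2 not with median centring. With each array left out in turn, the first PPP3CB probe set was called in 11 of 16 fits (adjusted p up to 0.055, without control replicate 2 at 48 h), PPP1R12A in 11 (up to 0.0737, without control replicate 1 at 72 h), PPP1R12B in 7 (up to 0.141, without control replicate 1 at 48 h) and PPP1R2 in 6 (up to 0.135, without induced replicate 2 at 24 h).

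Known partners and substrates of B56 complexes went both ways, with 3 of 16 higher and 4 lower (median 0.09). CCNG2, a cyclin G that binds B56 subunits, stood at 1.64 (adjusted p = 0.000758), although it was lower at 12 h than in controls at 0 h (-2.12, adjusted p = 0.0407). FOXO3, a transcription factor held in check by AKT, stood at 0.57 (adjusted p = 0.00262) and CTNNB1, which encodes beta-catenin, at 0.34 (adjusted p = 0.00888). MYC fell by 2.08 on the log2 scale (SE 0.17), averaging 3036 ± 2239.9 in induced arrays and 10631 ± 759 in control arrays (SD, n = 6 each), with all induced arrays below all control arrays. AKT1 fell by 0.84 (adjusted p = 0.000366), PIM1, a kinase, by 0.48 (adjusted p = 0.00246), and BUB1B, the checkpoint protein BUBR1, by 0.38 (adjusted p = 0.0129). The other tested probe sets of these called genes went the same way, with 1.24 for CCNG2 (adjusted p = 0.00433), -1.90 for PIM1 (adjusted p = 4e-05) and -3.37 to -1.93 for 3 of MYC. Centring on the median took CTNNB1 to 0.21 (adjusted p = 0.0969), and CCNG2, FOXO3, CTNNB1, AKT1 and BUB1B were not called against controls at 0 h. BCL2 was not called on its brightest probe set (0.02, adjusted p = 0.943), while another, chosen after its value was seen, was lower (-2.01, adjusted p = 2.95e-06). The remaining tested probe sets of BCL2 were not called, at -0.11 (adjusted p = 0.85) and -0.63 (adjusted p = 0.309).

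**Figure D5:**
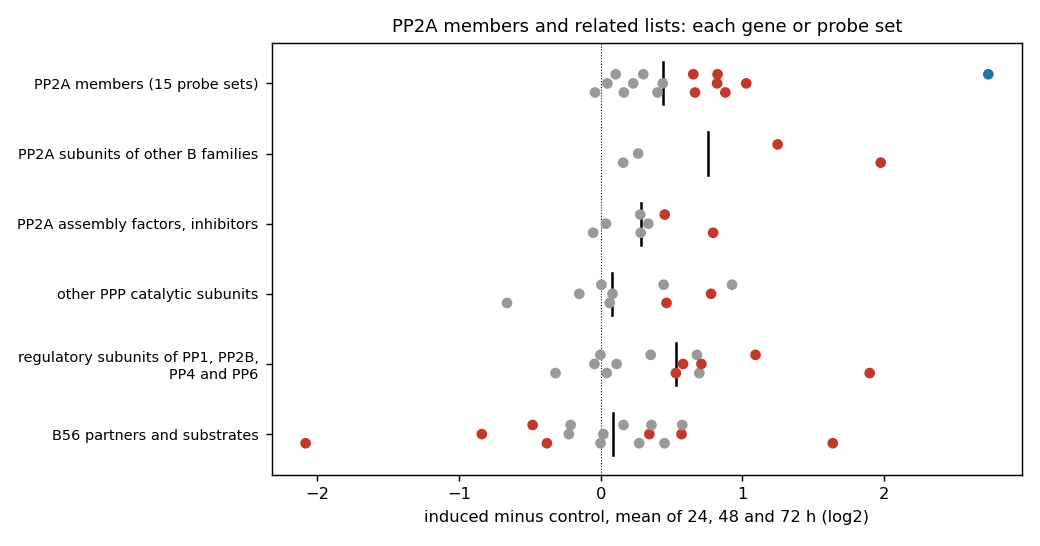
Fitted log2 difference of induced minus control cells in the average of 24, 48 and 72 h (horizontal axis) for the 15 tested PP2A probe sets and for each gene of the 5 related lists (rows, points spread vertically only for legibility), with called differences in red, others in grey, PPP2R5B in blue and list medians as black lines. No PP2A subunit or assembly factor is called below 0, whereas the B56 partners and substrates run between -2.08 (MYC) and 1.64 (CCNG2).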

How the data were processed

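Expression was measured on 16 Affymetrix U95Av2 arrays of U937 cells. The deposited values are linear array intensity, 1 per probe set and array, scaled by the authors with a factor per array, per the labels, so that every array has a mean of 1370.9. Of all values, 25.8% were below 0. The sources used here do not name the summary software.

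Values under 135.609 (the 40th percentile) were set to it, and log2 was taken. The 67 control probe sets were dropped. Of the others, the 7824 with 2 or more arrays over 292.742, the overall median, were tested, and 9.81% of their values lay at the floor. No further scaling was applied. Symbols came from the platform annotation, where 10961 probe sets had 1 symbol, 546 several and 1119 none. Genes were named only from probe sets with 1 symbol. No value column lacked a sample.

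Limma 3.58.1 under R 4.3.3 fitted a linear model of group means to the 16 arrays by lmFit and eBayes (trend = TRUE), with 8 residual degrees of freedom and a median prior of 5.19. Two-sided p-values were adjusted after Benjamini and Hochberg across the 7824 probe sets, and those under 0.05 were called. The average effect is the mean of the same-hour differences at 24, 48 and 72 h. A fold change is "at least" where any array of its lower side, and none of its higher side, lay at the floor. Log2 differences with such arrays are likewise lower bounds on the size of the change. The scripts were tested on simulated data. The number of arrays limits the precision.

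Members and lists were chosen with earlier results of these data known. The text names all members and, from each list, genes called in the average, 48 h or 72 h effect, up to 4 a direction by size, plus the 5 most and 2 least like PPP2R5B. Genes outside this rule are named as such or for comparison. Alternatives were other floors, an arcsinh scale, other filters, quantile normalization, median centring, a replicate block, controls at 0 h and leaving out each array.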

Additional observations from a re-analysis of the deposited data

Results flagged for a closer look

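The induced minus control difference of PPP2CB (924_s_at) was unequal between 24, 48 and 72 h by limma's F test (adjusted p = 0.00959). It was 0.20, 0.93 and 1.35 on the log2 scale at these hours, with 2 arrays in each group. The lowest and highest adjusted p without each array in turn were 0.0112 and 0.06, the highest without replicate 2 of the induced cells at 24 h. Groups of 2 arrays are too small to look for a single array that stands apart.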

How the results depend on the processing

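Counts of called probe sets differed by over 1.5 times in these cases. With no filter, 4 were called at 24 h, 169 at 12 h against 0 h and 29 between control hours, against 0, 257 and 15. The last was 24 with a floor at the 50th percentile. Against controls at 0 h the average effect had 1366 calls, against 2499. Among the 15 member probe sets, PPP2R5B included, the count at 12 h was 0 in place of 1 with a floor at the 50th percentile, no filter, quantile normalization, median centring and the replicate block. The count in the F test was 1 in place of 2 with a floor at the 30th percentile and with at least 8 arrays above the median. In that F test 10.9% of all tested probe sets were called. PPP2R5B, which was chosen by its rise, is part of these counts and of the member ranges below, which give no test of it. Replicate numbers were not used as pairs in the main model. Deviations from group means of same-numbered induced and control arrays (same hour, or 12 h with 0 h) correlated at between -0.119 and 0.118. Same-numbered arrays within the induced or the control series were not compared, so pairing there was not tested. Among members the replicate block changed only the call of PPP2R5C 40786_at at 12 h (-1.14, adjusted p = 0.0506).

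Without each array in turn, calls ranged between 0 and 1 at 24 h, 854 and 1563 at 48 h, 80 and 323 at 12 h, 463 and 884 in the F test over hours and 7 and 24 between control hours. For members the ranges were 3 to 6 at 72 h, 0 to 1 at 12 h, 0 to 3 in the F test (0 without induced replicate 2 at 24 h) and 0 to 1 between control hours.

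No called member difference changed sign under the alternatives run, and 1 called list gene did, TIPRL, at -0.0511 against controls at 0 h. Uncalled differences that did were PPP2R5B at 12 h (0.16 with the floor at the 30th percentile, 0.0919 on the arcsinh scale, 0.21 with quantile normalization, 0.22 with median centring), PPP2R5C 40785_g_at at 12 h (0.18 and 0.20 with the last 2), PPP2R5E at 12 h (0.001 and 0.0399), PPP2R5C 40784_at at 12 h (0.0779 with centring), PPP2R1A 922_at (-0.0882 in the average, -0.0158 at 48 h, -0.0285 at 72 h) and PPP2R5D (-0.0296). The cause was not tested.

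Uncalled differences also crossed 0 without single arrays. At 12 h the ranges were -0.0651 to 0.57 for PPP2R1A 40867_at, -0.67 to 0.60 for PPP2R5B, -0.84 to 0.49 for PPP2R5C 40784_at, -0.59 to 0.16 for PPP2R5E and -0.22 to 0.12 for PPP2R5C 40785_g_at. At 24 h they were -0.44 to 0.75 for PPP2R5C 176_at, -0.17 to 0.55 for 40786_at, -0.0533 to 0.49 for 40785_g_at, -0.12 to 0.82 for PPP2R1B 1094_g_at, -0.0346 to 0.30 for PPP2R5A and -0.0741 to 0.55 for PPP2R5E. At 48 h they were -0.41 to 0.90 for 40784_at, -1.48 to 0.69 for 1094_g_at and -0.12 to 0.0307 for BUB1B. At 72 h they were -0.56 to 0.23 for 40784_at and -0.32 to 0.0155 for PPP2R5A. In the average they were -0.13 to 0.59 for 1094_g_at and -0.0946 to 0.0172 for PPP2R5A.

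With 2 arrays per group, values near the floor, as those of PPP2R5B in control cells, have only a bound. The list genes' values under these settings were added after seeing the data.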
